A study of Homo sapiens with 12 samples.

Results

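The 4 HOX clusters and the megabase-sized domains around them were examined for peaks of HOXA13 chromatin immunoprecipitation sequencing (ChIP-seq). A peak belonged to a domain when its summit, the base with the highest ChIP signal, fell within a 2.2 Mb window centred on a cluster. In GRCh37 coordinates the windows were chromosome 7, 26.1 to 28.3 Mb (HOXA), chromosome 17, 45.6 to 47.8 Mb (HOXB), chromosome 12, 53.3 to 55.5 Mb (HOXC), and chromosome 2, 175.9 to 178.1 Mb (HOXD). Together they held 511 of the 146071 peaks that 4 lists placed on chromosomes 1 to 22, X and Y, of 164693 peaks in all. HOXD held 208 of these peaks, HOXA 136, HOXB 90 and HOXC 77.

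The study used HepG2 and Huh7, both human lines derived from hepatocellular carcinoma. Untagged cells of each line were precipitated with an antibody to HOXA13, and cells of each line carrying HA-tagged Hoxa13 were precipitated with an antibody to the HA tag. Each of these 4 cell populations also gave a mouse IgG precipitate and an input, 12 libraries in all with 1 per condition. The labels give stable transfection with jetPRIME for the lines and no promoter, clone number or level of the tagged protein. The antibody used and the presence of tagged protein changed together, so their parts in any difference cannot be told apart. Because no condition was repeated, the differences between lists below have no replicate check and carry no test. The 4 IgG libraries were not analysed here.

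HOX genes encode homeodomain transcription factors that give cells along the body axis their positional identity. In mammals they lie in clusters whose gene order follows the order of their use, with the HOX13 genes at the 5′ end and used in the most posterior structures, such as the distal limb and the genital tubercle. HOXA13 is the last gene of the HOXA cluster. The HOXA and HOXD clusters are flanked by large regulatory domains rich in enhancers, and HOX13 proteins are known to bind in these domains and in the clusters themselves during limb development. Order in the RefSeq table (assembly GRCh38.p14, used only for names) placed EVX1, HIBADH and JAZF1 beyond HOXA13. SKAP1 and CBX1 lay beyond HOXB1 and TTLL6 and CALCOCO2 beyond HOXB13, CALCOCO1 and ATF7 beyond HOXC13 and SMUG1 and CBX5 beyond the other end of HOXC. EVX2 and LNPK followed HOXD13 and MTX2 and HNRNPA3 followed HOXD1.

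Promoter sequences were at hand for some of the HOX genes. Of 39 HOX genes, 20 had a full 250 bases before the start in their first entry of the RefSeq promoter table (GRCh38.p14). These bases were read 5′ to 3′ on the gene's strand. HOXB was covered by HOXB1 alone and HOXC by HOXC4 and HOXC5, and the others were HOXA and HOXD genes. The set therefore does not describe the 4 clusters evenly. Both strands were searched for TCGTAAA and for CAATAAA, motifs of the type bound by HOX13 and other posterior HOX proteins, which share their last letters and did not overlap in the sequence shown. The promoter of HOXA13 (chromosome 7, minus strand), the gene of the factor itself, and that of HOXC4 (chromosome 12, plus strand) are given, the latter because it held both motifs. Capitals mark the motifs, which lay on the minus strand and so appear as TTTACGA and TTTATTG in the printed plus strand.
HOXA13: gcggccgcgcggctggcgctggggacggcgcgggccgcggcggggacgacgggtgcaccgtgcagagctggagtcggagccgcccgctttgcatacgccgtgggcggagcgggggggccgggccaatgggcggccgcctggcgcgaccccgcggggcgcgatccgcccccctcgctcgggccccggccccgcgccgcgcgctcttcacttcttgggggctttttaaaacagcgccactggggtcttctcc
HOXC4: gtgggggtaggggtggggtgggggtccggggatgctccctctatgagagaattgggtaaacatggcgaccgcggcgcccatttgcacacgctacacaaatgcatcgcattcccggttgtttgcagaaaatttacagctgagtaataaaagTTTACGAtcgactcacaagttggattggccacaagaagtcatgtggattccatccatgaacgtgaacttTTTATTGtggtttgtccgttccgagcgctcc
The HOXA13 sequence had 78.0% G and C, 40 CpG dinucleotides and neither motif. HOXC5 is listed with the same sequence as HOXC4, so the pair counts as 1 sequence. Among 19 distinct HOX promoter sequences, this 1 (5.263%) held TCGTAAA, against 0.4399% of 27050 distinct sequences of all genes. The same sequence alone held CAATAAA, against 3.797% of all. A single sequence gives no basis for calling either share different. The HOX promoters had a median of 20.5 CpG dinucleotides, against 11 for all genes, at a similar content of G and C (medians 59.0% and 58.0%). These sequences were not placed on the peaks, because the peaks are in another build, and no statement on binding at a promoter follows from them.

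Depth and strength of the lists set what the domains can show. The labels give 50 M reads for a sample, and the lists as deposited extend down to a p of 0.01 with no limit on q. The median member summit carried 7 ChIP fragments with anti-HOXA13 and 13 with anti-HA in HepG2, and 14 and 11 with the same antibodies in Huh7. Fold is the authors' value, the ChIP signal at the summit over that expected from input. Intervals in parentheses are exact 95% intervals and cover counting error only. Those of folds cover the count of ChIP fragments alone and take the expected signal as fixed. Those of a window's count over its expected number take the expected number as fixed.

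The windows as a whole carried about as many peaks as the rest of their chromosomes. In HepG2 they held 222 of 71999 peaks with anti-HOXA13 and 140 of 34849 with anti-HA, and in Huh7 35 of 10414 and 114 of 28809 with the same antibodies. Relative to the number expected from the rest of the same chromosome, these counts were 0.922 times (0.805 to 1.05), 1.11 times (0.936 to 1.31), 0.936 times (0.652 to 1.30) and 1.07 times (0.884 to 1.29), in the same order. All 4 intervals hold 1. In HepG2 anti-HA the interval excluded 1 under 2 other settings, at 1.22 (1.01 to 1.46) without peaks of raised input, meaning an expected signal over 3 times the background of the list, and at 1.28 (1.00 to 1.61, with a lower bound just above 1) over the central 1 Mb of each window.

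**Figure D1:**
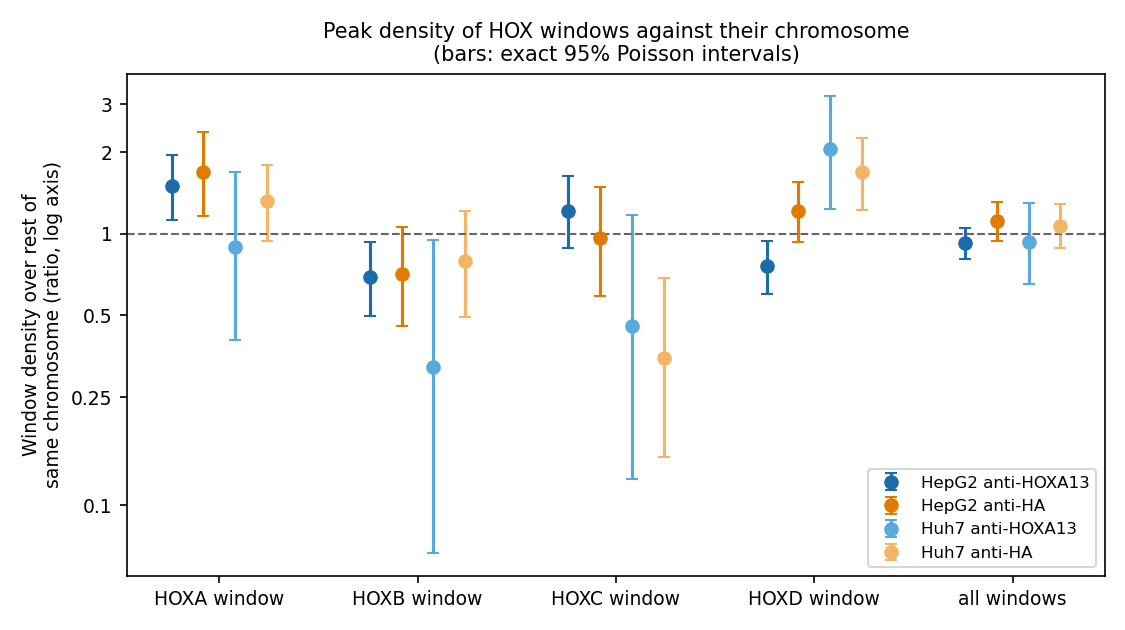
Peak density of each HOX window divided by the density of the rest of its chromosome (vertical log axis, a ratio), for each window and for all windows together (horizontal axis). Points are single lists in 4 colours and bars are exact 95% Poisson intervals. All 4 lists straddle 1 when the windows are pooled, while HOXA lies above 1 in HepG2 and HOXD lies above 1 in the Huh7 lists.

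Single windows departed from their chromosomes in both directions, as the plot of window against chromosome density shows. Among 16 window ratios, 8 had an interval that excluded 1, with no adjustment for their number. These intervals take peaks as independent, and peak counts varied widely along each chromosome, so the counts are also set against other stretches of 2.2 Mb. HOXA held more peaks than expected from its chromosome in both HepG2 lists. It held 54 HepG2 anti-HOXA13 peaks, 1.49 times the expected number (1.12 to 1.95), and 33 HepG2 anti-HA peaks, 1.69 times (1.16 to 2.37). On chromosome 7, 8 of 68 other stretches (11.8%) held at least as many HepG2 anti-HOXA13 peaks and 2 of 68 (2.94%) at least as many HepG2 anti-HA peaks. Huh7 anti-HA had 40 peaks there, 1.32 times (0.941 to 1.79), and Huh7 anti-HOXA13 had 9, 0.890 times (0.407 to 1.69), neither beyond counting error. Against the 10 Mb on either side of the window the HepG2 ratios stayed above 1, at 1.43 (1.08 to 1.87) and 1.51 (1.04 to 2.12).

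HOXD stood above its chromosome in both Huh7 lists. Huh7 anti-HOXA13 placed 19 of its 35 members there, 2.05 times the expected number (1.24 to 3.21), and Huh7 anti-HA placed 45, 1.68 times (1.23 to 2.25). At least as many lay in 10 of 105 other stretches of chromosome 2 (9.52%) for Huh7 anti-HOXA13 and in 16 (15.2%) for Huh7 anti-HA. Relative to the 10 Mb on either side, the ratios were 1.46 (0.881 to 2.29) and 1.17 (0.850 to 1.56), whose intervals hold 1. HepG2 anti-HA placed 63 peaks there (1.22, 0.934 to 1.56) and HepG2 anti-HOXA13 placed 81 (0.758, 0.602 to 0.942), the latter below its chromosome and at 1.02 times (0.808 to 1.26) the neighbouring 10 Mb. Set against the median autosome, chromosome 2 as a whole was 2.32 times as dense in peaks with anti-HOXA13 in HepG2 and 2.44 times with anti-HA, and 1.15 times as dense in each Huh7 list. The largest member counts, those of HOXD in HepG2, therefore lay on a chromosome of high mean density. Its stretches of 2.2 Mb ranged from 19 to 219 HepG2 anti-HOXA13 peaks. The part of DNA copy number in this was not tested.

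HOXB fell below its chromosome in both anti-HOXA13 lists, and HOXC did so in Huh7 anti-HA. HOXB held 42 HepG2 anti-HOXA13 peaks, 0.692 times the expected number (0.499 to 0.935), and 0.602 times (0.434 to 0.814) against the 10 Mb on either side, although 13 of 33 other stretches of chromosome 17 (39.4%) held as few. It held 24 HepG2 anti-HA peaks (0.712, 0.456 to 1.06), 21 Huh7 anti-HA peaks (0.797, 0.493 to 1.22) and 3 Huh7 anti-HOXA13 peaks (0.324, 0.0667 to 0.946). Against the 10 Mb on either side the Huh7 ratios were 1.18 (0.729 to 1.80) with anti-HA and 0.535 (0.110 to 1.56) with anti-HOXA13, so the former turned direction and the latter no longer excluded 1. HOXC held 8 Huh7 anti-HA peaks, 0.349 times the expected number (0.151 to 0.687), and 0.463 times (0.20 to 0.913) against the 10 Mb on either side, while 9 of 56 other stretches of chromosome 12 (16.1%) held as few. In the other lists the HOXC window did not differ from its chromosome beyond counting error, with 45 HepG2 anti-HOXA13 peaks (1.22, 0.887 to 1.63), 20 HepG2 anti-HA peaks (0.966, 0.590 to 1.49) and 4 Huh7 anti-HOXA13 peaks (0.457, 0.125 to 1.17).

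The centre of each window was then set against its flanks. The central 220 kb, 10% of the window, is called the core, and the 990 kb on each side are the flanks. Whether the core spans exactly the HOX genes was not checked, because no annotation of the build was used here. The 4 cores, 880 kb together, held 58 of the 511 members. HepG2 anti-HOXA13 had 29 core peaks, 1.35 times the flank density (0.882 to 2.01), HepG2 anti-HA had 18 (1.33, 0.762 to 2.19) and Huh7 anti-HA had 11 (0.961, 0.465 to 1.79). Huh7 anti-HOXA13 had none in any core (0 peaks per Mb, 0 to 4.19), against 4.42 per Mb in its flanks. The exact interval of its core-to-flank ratio ran from 0 to 1.00 and still held 1. Empty stretches of 220 kb were common in that list, from 43.5% of those on chromosome 7 to 49.4% of those on chromosome 2. Pooled over the clusters, core and flank densities therefore did not differ beyond counting error in any list.

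**Figure D2:**
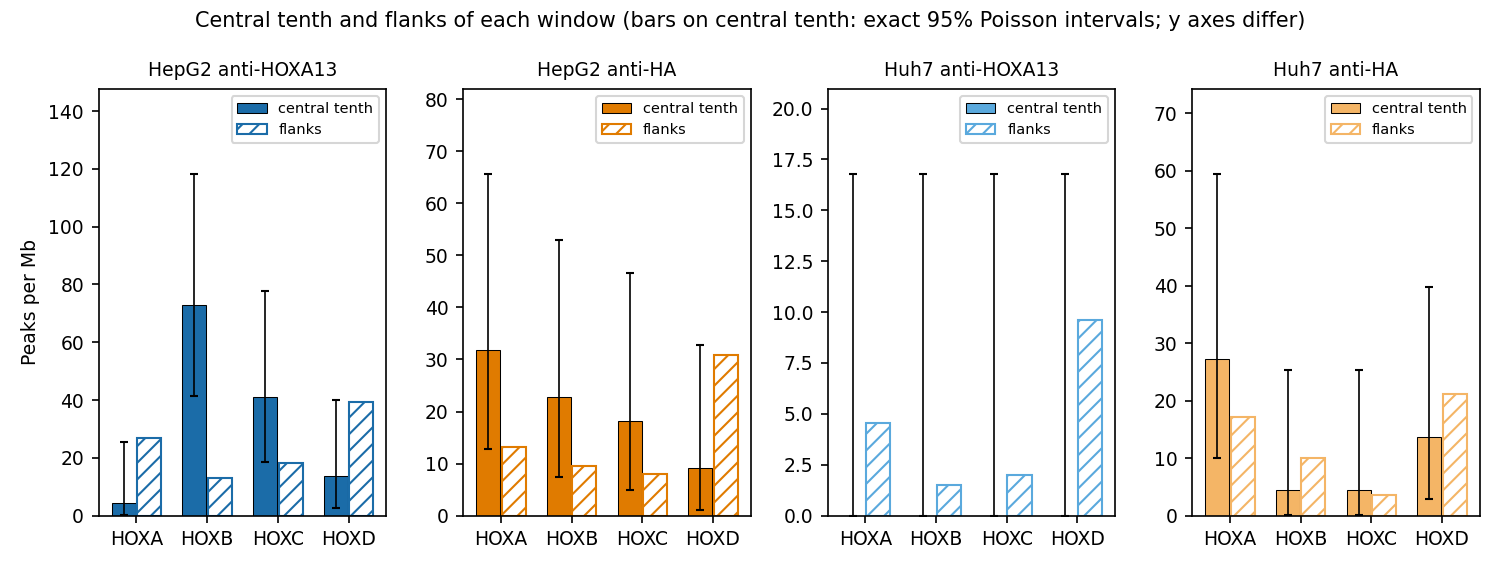
Peaks per Mb (vertical axis, own scale per panel) in the core (filled bars, with exact 95% Poisson intervals) and in the flanks (hatched bars) of each HOX window, 1 panel per list. The HOXB core stands out in HepG2 anti-HOXA13 at 72.7 peaks per Mb, and Huh7 anti-HOXA13 has no core peak.

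The HOXB core of HepG2 anti-HOXA13 had the highest ratio of core to flanks among the 16 combinations of window and list. It held 16 peaks, or 72.7 per Mb, 5.54 times the density of its flanks (2.78 to 10.7), although the window as a whole was below its chromosome. Of these peaks, 13 lay in 74.0 kb, at chromosome 17, 46612927 to 46686879. They were weak. Each summit carried 5 to 11 fragments, folds ran from 2.17 to 3.31, and 1 of the 16 reached a q of 0.05, the peak at 46665504 to 46665606 (3.31-fold, 1.79 to 5.71). Elsewhere on chromosome 17 the median stretch of 220 kb held 4 peaks, the highest held 66, and 28 of 342 (8.19%) held at least 16. In the HOXB core the anti-HA lists had 5 peaks (HepG2) and 1 peak (Huh7) and Huh7 anti-HOXA13 had 0. None of them overlapped any of the 16 (0%, 0 to 20.6). Outside the windows on the 4 chromosomes 2.31% of HepG2 anti-HOXA13 peaks overlapped another list, a share within that interval.

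The HOXA and HOXC cores are given for both HepG2 lists side by side. In the HOXA core HepG2 anti-HOXA13 had 1 peak, 0.170 times the flank density (0.00422 to 0.988), of 2.17-fold (1.07 to 4.04) at chromosome 7, 27236141 to 27236282. Elsewhere on chromosome 7, 167 of 695 stretches of 220 kb (24.0%) held as few. HepG2 anti-HA had 7 (2.42, 0.888 to 5.73), and 35 of 695 other stretches of 220 kb on chromosome 7 (5.04%) held as many. In the HOXC core HepG2 anti-HOXA13 had 9 peaks (2.25, 0.953 to 4.76) and HepG2 anti-HA had 4 (2.25, 0.547 to 6.97). All 9 of the former had an expected signal within 2% of the background level, as did 88.9% of the peaks in the HOXC window and 62.0% of those in the whole list, and the strongest was 3.67-fold (1.88 to 6.63) from 9 fragments at chromosome 12, 54301173 to 54301318. The HOXD core held 3 HepG2 anti-HOXA13 peaks (0.346, 0.0699 to 1.05) and 2 HepG2 anti-HA peaks (0.295, 0.0349 to 1.11). It held 0 Huh7 anti-HOXA13 peaks and 3 Huh7 anti-HA peaks (0.643, 0.127 to 2.01). None of these differed from its flanks beyond counting error. As few were held by 23.7%, 15.7%, 49.4% and 67.4% of 1072 other stretches of 220 kb on chromosome 2, in the same order.

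Strength set HepG2 anti-HA apart among the members. In it 72 of 140 members (51.4%, 42.8 to 60.0) reached a q of 0.05, against 51.2% of its whole list. The other lists had 17 of 222 (7.66%, 4.52 to 12) in HepG2 anti-HOXA13, 2 of 35 (5.71%, 0.700 to 19.2) in Huh7 anti-HOXA13 and 4 of 114 (3.51%, 0.964 to 8.74) in Huh7 anti-HA, against 10.3%, 9.31% and 6.68% of the whole lists. Each whole-list share lies within the interval of its members. A stricter limit, a −log10 q of 5 or more, was met by 32 HepG2 anti-HA members (22.9%), against 21.6% of that list, and by none in the other lists, whose whole-list shares were 0.753% (HepG2 anti-HOXA13), 2.55% (Huh7 anti-HOXA13) and 0.399% (Huh7 anti-HA). At least 5-fold was reached by 18 HepG2 anti-HA members, where 10.9% of the whole list did. No member of the other lists reached it, at whole-list shares of 0.124% (HepG2 anti-HOXA13), 1.98% (Huh7 anti-HOXA13) and 0.0764% (Huh7 anti-HA).

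**Figure D3:**
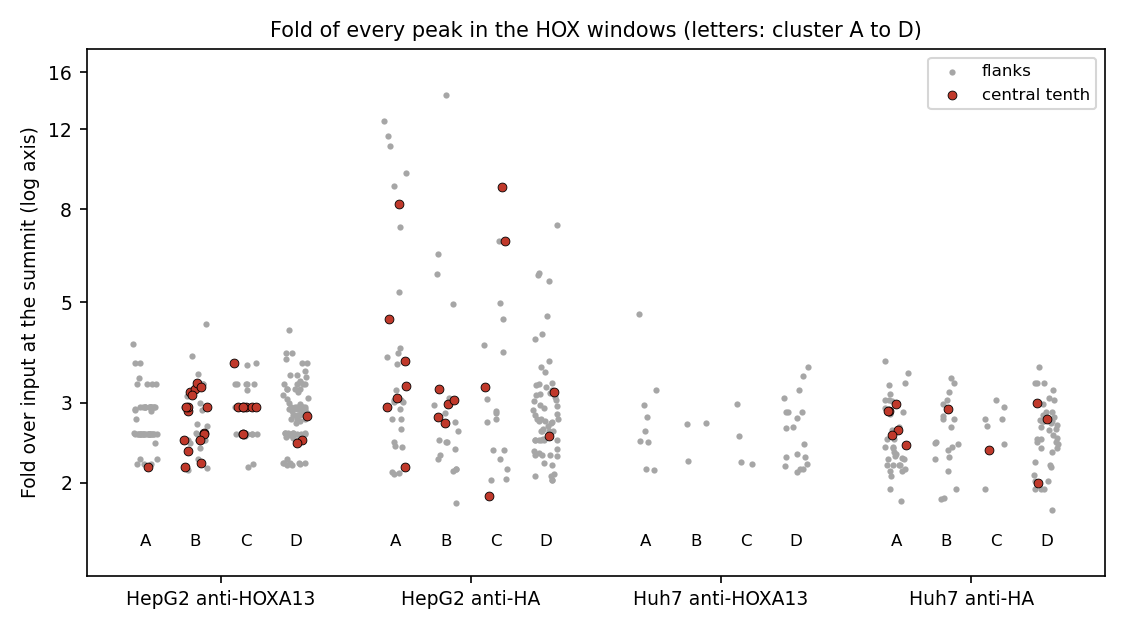
Fold over input of every member (vertical log axis), by list and, within a list, by HOX window A to D (horizontal axis), each point 1 peak, red in the core and grey in the flanks. HepG2 anti-HA reaches 14.3-fold, and the highest values of the other lists lie between 3.70-fold and 4.70-fold.

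HepG2 anti-HA peaks in the cores were led by HOXA and HOXC. Of its 18 core peaks, 13 (72.2%, 46.5 to 90.3) reached a q of 0.05, against 59 of 122 (48.4%, 39.2 to 57.6) in the flanks, with intervals that overlap. In the HOXA core 6 of 7 peaks lay within 39.4 kb, at chromosome 7, 27173446 to 27212833, and all 6 reached a q of 0.05. The strongest, at 27188624 to 27189043, stood on 48 fragments where 4.95 were expected, an 8.24-fold enrichment (6.12 to 10.9). The peaks at 27173923 to 27174322 and 27173446 to 27173760 followed at 4.59-fold (3.11 to 6.57) and 3.70-fold (2.43 to 5.44). In the HOXC core the peak at chromosome 12, 54372214 to 54372455, reached 8.94-fold (6.62 to 11.8) from 47 fragments where 4.37 were expected. A further HOXC peak, at 54427307 to 54427868, reached 6.81-fold (4.89 to 9.24), and that at 54372919 to 54373194 reached 3.26-fold (1.94 to 5.17). These core peaks of HOXA and HOXC overlapped no peak of the other 3 lists, and 0 of all 18 core peaks did (0 to 18.5%). Outside the windows on the 4 chromosomes 9.76% of HepG2 anti-HA peaks overlapped another list, a share within that interval. The HOXB and HOXD cores held no comparable peak, with highest folds of 3.23 (1.83 to 5.35) at chromosome 17, 46767932 to 46768094, and 3.17 (1.79 to 5.25) at chromosome 2, 177098839 to 177098973.

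Huh7 anti-HA had 6 of its 11 core peaks in HOXA, 1.59 times the flank density (0.545 to 3.83), and 113 of 695 other stretches of chromosome 7 (16.3%) held as many. They lay between 2.43-fold and 2.98-fold, and none of its 11 core peaks reached a q of 0.05. The highest in HOXA, at 27213158 to 27213445, had 17 fragments where 5.04 were expected (2.98-fold, 1.80 to 4.67). No Huh7 anti-HA core peak overlapped a HepG2 anti-HA core peak. Of the 11, 0 overlapped any other list (0 to 28.5%), against 9.49% of Huh7 anti-HA peaks outside the windows on the 4 chromosomes. In the HOXA core 2 of the 7 HepG2 anti-HA summits (28.6%, 3.67 to 71.0) had a Huh7 anti-HA summit within 1 kb, the closer at 602 bp, and 0 did in the other 3 cores. Over all windows 9 of 140 (6.43%, 2.98 to 11.9) did, against 9.19% on the same chromosomes outside them, a share within both intervals. The expected signal from input was higher in the cores of this list, with a median of 1.93 times the background against 1.26 times in its flanks; in HepG2 anti-HA the medians were 1.53 and 1.44 times. The part of this in the core counts was not tested.

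The strongest members lay in the flanks, again in HepG2 anti-HA, where the flanks held 122 of the 140 members. Strong peaks were no more frequent there, as a −log10 q of 5 or more was met by 27 flank peaks (22.1%) and 5 of 18 core peaks (27.8%). The highest of all was in the HOXB13-side flank, at chromosome 17, 47674108 to 47674612, with 121 fragments where 7.55 were expected, 14.3-fold (11.9 to 17). In the HOXA window the peak at chromosome 7, 26728037 to 26728776, in the flank away from HOXA13, reached 12.5-fold (10.2 to 15.2) from 99 fragments. On the side of HOXA13 and EVX1 the highest, at 27556256 to 27556572, reached 11.6-fold (8.41 to 15.6) from 41 fragments. These peaks ranked 308, 460 and 584 by fold among the 34849 of the list. The HOXD flanks were led by chromosome 2, 176484041 to 176484633, on the side of HOXD13 and EVX2, at 7.40-fold (5.40 to 9.90), and by 177326578 to 177326944 on the side of HOXD1 and MTX2, at 5.80-fold (3.65 to 8.81). In HOXC the highest members were the core peaks, and in HOXB the flank peak at 45697941 to 45698208 followed at 6.37-fold (4.57 to 8.64). Neighbouring genes are given by order alone, so a peak's nearest gene is not stated.

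Raised input lay under 19 of the 140 HepG2 anti-HA members (13.6%, 8.37 to 20.4). It lay under 0 of 222 in HepG2 anti-HOXA13, 1 of 35 in Huh7 anti-HOXA13 and 6 of 114 in Huh7 anti-HA. In the whole lists the shares were 17.3% (HepG2 anti-HA), 1.82% (HepG2 anti-HOXA13), 8.83% (Huh7 anti-HOXA13) and 8.13% (Huh7 anti-HA). HOXB had the most in HepG2 anti-HA, 8 of 24. The leading HepG2 anti-HA peaks of HOXA, HOXB, HOXC and HOXD named above were free of it. The HOXD core peak at chromosome 2, 177051817 to 177052286, was not (2.54-fold, 1.68 to 3.70). Nor was the HOXC core peak at chromosome 12, 54399837 to 54400141 (1.87-fold, 1.16 to 2.87), which did not reach a q of 0.05.

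Members in the other lists were lower. The highest HepG2 anti-HOXA13 member, at chromosome 17, 46318867 to 46318973, was 4.47-fold (2.53 to 7.41) from 13 fragments. In HOXD that list's highest, at chromosome 2, 176303192 to 176303456, was 4.34-fold (2.35 to 7.47) and in HOXA, at chromosome 7, 26747608 to 26747787, 4.04-fold (2.13 to 7.11). They rested on 11 and 10 fragments, and their intervals overlap widely with those of the HOXB peak. The highest of Huh7 anti-HOXA13, in the HOXA flank 188 kb from the window's centre, was the peak at chromosome 7, 27011629 to 27011842, of 4.70-fold (2.98 to 7.11) from 20 fragments. In Huh7 anti-HA the highest was chromosome 7, 28135943 to 28136070, at 3.70-fold (2.10 to 6.15). All 5 stood below the leading HepG2 anti-HA member of their window.

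The flanks on either side of a cluster held unequal numbers of HepG2 anti-HOXA13 peaks. Over the 4 windows its flank toward the HOX13 gene held 61 peaks and the opposite flank 132, a ratio of 0.462 (0.335 to 0.631). This interval takes peaks as independent, although they lay in groups. The flank counts were not set against other stretches, so whether such a difference is unusual was not tested. HOXB (4 and 22), HOXC (7 and 29) and HOXD (22 and 56) each had fewer on the HOX13 side, and HOXA (28 and 25) did not. In HepG2 anti-HA the counts were 64 and 58 (1.1, 0.761 to 1.60), in Huh7 anti-HOXA13 16 and 19 (0.842, 0.405 to 1.73) and in Huh7 anti-HA 60 and 43 (1.40, 0.928 to 2.11), none beyond counting error. Of the 56 HepG2 anti-HOXA13 peaks in the opposite HOXD flank, 30 lay in a stretch of 231 kb, at chromosome 2, 177562712 to 177794036, between 2.19-fold and 3.86-fold, 2 of them with a q of 0.05 or less. The longest stretch without a summit was taken for each window and list. Not all are given here, and many lay wholly in the flanks. Huh7 anti-HOXA13 had no summit over 1496 kb of the HOXC window, chromosome 12, 54004168 to 55500000, nor over 447 kb of HOXD, chromosome 2, 176741468 to 177188216, and both stretches contain the whole core. That list had 4 peaks in the HOXC window, a median of 238 kb apart, and 19 in HOXD, a median of 80.4 kb apart. Its longest empty stretches in HOXB (819 kb) and HOXA (684 kb) did not touch the core. HepG2 anti-HA had none over 255 kb of HOXD, 176796643 to 177051954, which covers most of the core. Longer empty stretches of the same list, in HOXB (397 kb), HOXC (385 kb) and HOXA (257 kb), lay wholly outside the core.

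Few members were found in more than 1 list. In all, 20 peaks in 10 regions overlapped a peak of another list by at least 1 bp, none of these regions lay in a core and none held peaks of 3 lists. These were 2 of 222 in HepG2 anti-HOXA13 (0.901%, 0.109 to 3.22), 8 of 140 in HepG2 anti-HA (5.71%, 2.50 to 10.9), 3 of 35 in Huh7 anti-HOXA13 (8.57%, 1.80 to 23.1) and 7 of 114 in Huh7 anti-HA (6.14%, 2.50 to 12.2). On the same chromosomes outside the windows the shares were 2.31%, 9.76%, 5.64% and 9.49%, in the same order, and each lies within the interval of the members. The anti-HA lists of both lines shared 6 of the 10 regions.

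The shared region with the highest fold lay in the HOXA flank toward EVX1. At chromosome 7, 27386223 to 27387072, about 187 kb from the window's centre, HepG2 anti-HA stood at 9.64-fold (7.09 to 12.8) from 45 fragments and Huh7 anti-HA at 1.83-fold (1.07 to 2.94) from 15. The summits were 48 bp apart. The 3 shared HOXB regions all joined the anti-HA lists, and all 3 had raised input in HepG2. The most heavily covered was chromosome 17, 47269752 to 47270028, with 3.07-fold (2.50 to 3.73) in HepG2 and 2.26-fold (1.55 to 3.19) in Huh7. HOXD held 6 shared regions. Chromosome 2, 178077209 to 178077659, joined the anti-HA lists at 2.38-fold and 2.75-fold, again with raised input in both. Chromosome 2, 176250743 to 176251023, was the only region found with the HOXA13 antibody in both lines, at 2.21-fold (1.05 to 4.26) in HepG2 and 3.07-fold (2.10 to 4.35) in Huh7. The regions at 177475748 to 177476034 (both antibodies in HepG2) and 177740899 to 177741163 (both antibodies in Huh7) had folds of 3.22 with anti-HOXA13 and 3.59 with anti-HA, and of 3.21 and 2.74. The last 2 shared regions, 176356230 to 176356471 and 178011846 to 178012062, stayed below 3-fold in each list. HOXC held no shared region.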

How the data were processed

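The members, windows, gene lists and comparisons were chosen with earlier results of these data known. Per the file names, every deposited list holds the peaks of 1 ChIP library over its own input. The submitters' processing notes name BWA and MACS2; a version or setting of either is not given in the sources used here. Those notes also name GRCh38, but the lists carry decoy and GL000 sequence names, as in GRCh37 with its decoy, and the build rests on these names. Coordinates are GRCh37, 1-based and unconverted. Chromatin was sonicated to about 200 bp, per the labels' protocols.

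The authors' deposited values were the fold (the ratio of ChIP to expected pileup at the summit), the −log10 of p and of q, a score (10 times −log10 p, truncated) and, as another number, the offset of the summit. The fragments and the expected pileup were solved from the deposited fold and p with the formulas of MACS2, with 1 added to each pileup. The ChIP signal of Huh7 anti-HOXA13 was scaled by 0.812; its fragments are before scaling. The background is the lowest expected level of a list (1.73 and 2.62 in HepG2 with anti-HOXA13 and anti-HA, 2.60 and 2.61 in Huh7).

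Expected counts came from the same chromosome outside its window, leaving out peak-free stretches of at least 1 Mb, judged over the lists together. Poisson, conditional binomial and Clopper-Pearson 95% intervals cover counting error only. Named regions were, by rule, core peaks (all where 6 or fewer, else the 3 highest by fold). Also taken by rule were the 2 highest per window and list, up to 10 shared regions and the longest empty stretches. Not all of these empty stretches are given. Groups of summits at most 30 kb apart, and the single HOXB core peak with a q of 0.05 or less, were chosen after their values were seen. The formulas were tested on simulated data. Python 3.11.15 was used with scipy 1.17.1, pandas 2.3.3, numpy 2.4.6 and, for figures, matplotlib 3.10.9.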

Additional observations from a re-analysis of the deposited data

How the results depend on the processing

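Of 48 alternative values for 9 results (8 pooled ratios and the overlap count), 39 stayed within the counting interval of the reported ratio or, with summits within 100 bp, near the reported count (18 against 20), and 9 moved further; no alternative was run for the shares of members with a q of 0.05 or less. Of the 44 for pooled ratios, 8 lay on the other side of 1, and the intervals of all 8 held 1. With only peaks of q of 0.05 or less, the density ratio of all windows was 0.776 for HepG2 anti-HOXA13, that of Huh7 anti-HA was 0.563, and the core-to-flank ratio of Huh7 anti-HA was 0 (0 to 13.6). For HepG2 anti-HA this core-to-flank ratio was 1.98 (0.998 to 3.66) on 13 core peaks, an interval that just holds 1. With only peaks of −log10 q of 5 or more, the density ratio was 0 for both anti-HOXA13 lists (0 to 3.63 in HepG2, 0 to 4.13 in Huh7) and for Huh7 anti-HA (0 to 11.2), where so few peaks were expected that a count of 0 shows nothing of density. The 20 overlapping members became 4 when the overlap had to cover at least 50% of each interval, 2 when both peaks had a q of 0.05 or less, and 12 without raised input.

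The alternatives for single windows and cores were chosen after seeing the data. Of the 8 single-window ratios whose interval excluded 1, 7 still did so against the same chromosome arm, 4 against the 10 Mb on either side, 7 without raised input, 2 over the central 1 Mb and 1 with only peaks of q of 0.05 or less, the HOXA window of HepG2 anti-HA (1.82, 1.13 to 2.79). In HepG2 anti-HOXA13 the HOXB ratio turned to 1.16 over the central 1 Mb, and the HOXD ratio to 1.02 against the 10 Mb on either side. With the central 20% of the window as the core, the HOXB core of HepG2 anti-HOXA13 held 6.50 times the flank density, and the HOXA core 0.696 times (0.284 to 1.49). The causes were not tested.

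The span of the annotated HOX genes as the core was not run, because no annotation of the build was used here. No paired analysis was possible because each condition had 1 library. Summits of 5 to 13 fragments limit the HepG2 anti-HOXA13 members, and 3 to 19 members per window leave wide intervals in Huh7 anti-HOXA13.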
